A study of Mus musculus with 6 samples.

Results

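The Zfp genes of the mouse are named after the zinc finger, a short fold in which pairs of cysteines and histidines hold a zinc ion, and the genes described here are those whose symbol in the array's probe annotation is Zfp followed by a number. There were 93 such genes among the 6788 named genes of the array, measured by 115 of its 15600 cDNA clones. The RNA came from Neuro-2a cells, a mouse neuroblastoma line, 60 h after transient transfection. One RNA of each array was from cells that received GFP-tagged human TBP with a CAG repeat of length 59, called 59Q here, and the other was from cells that received the GFP vector pEGFP-N3, called N3. Both RNAs shared the cell line and the time point, and both constructs carried GFP, alone in N3 and fused to TBP in 59Q. The study's methods name a transfection reagent and a nucleofection device, without saying which served for the arrays. The 6 two-colour arrays differed in the dye of the 59Q RNA, which was Cy5 on replicates 1, 3, 4 and 6 and Cy3 on replicates 2 and 5.

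A transient transfection leaves part of the cells without the construct, so each value is an average over transfected and untransfected cells. In such bulk RNA, fewer cells of a type and less RNA per cell cannot be told apart. Every value is a Z-ratio, a score with no unit in which the difference between the channels of an array is scaled by the spread of such differences on that array. It carries neither a level nor a fold, so levels of different genes cannot be ranked and the cell type markers of Neuro-2a cells could not be checked for presence. The study describes its Z-ratios as 59Q against N3, which makes it likely that a positive deposited value stands for more RNA in the 59Q transfected cells. The labels do not say so for the arrays, nor whether the sign was turned on those with swapped dyes, so the direction is not settled. Values are therefore given as deposited, and again with replicates 2 and 5 turned in sign, which makes the 59Q RNA point 1 way on all arrays if the deposited ratio is Cy5 over Cy3. Tbp, the gene of the transfected protein, had deposited Z-ratios of 2.92, 2.31, -0.0977, 0.176, 1.74 and 1.04 on replicates 1 to 6, and whether its mouse clones detect the human transcript was not tested. The series description counts 4 biological replicates and 2 pairs of flip-dye arrays without naming the partners, while the methods speak of 6 replicates from different batches of cells. If partners share their RNA, the n of 6 given below holds 4 independent samples, and the p-values measure only the spread between arrays, which may be technical.

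Zinc-finger proteins of the Krüppel type form the largest family of DNA-binding factors in mammals. Many carry a KRAB domain, which recruits the corepressor Trim28 and through it the histone methyltransferase Setdb1 and the HP1 proteins, and so silences transposons and imprinted loci. The name Zfp describes a fold and not a function, and the genes measured also hold RNA-binding proteins, ubiquitin and SUMO ligases, ribosome maturation factors and a kinetochore protein. The label "transcription factors" thus does not cover every one of the 93 genes.

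The upstream sequences of 4 genes are shown because TBP, the protein carried by the construct, binds the TATA box of promoters. Zfp36l1 held the only TATAAA at the usual TATA position, taken as 40 to 15 bases before the start, among the Zfp promoters matched. That is 1.08% of the 93 Zfp windows described below, against 1.99% of all 32851 promoters. Zfp212 had the clearest pattern by dye, and Zfp367 and Zfp598 were the genes above 0 on all 6 arrays as deposited. Each is the stretch of 100 bases before the RefSeq start in build GRCm38.p6, 5′ to 3′ on the strand of the gene, where capitals mark a TATAAA (the letters of the TATA box), the CCAAT box or the letters of the GC box (GGGCGG) wherever they occur on either strand.
Zfp36l1, chr12:80113014-80113113, minus strand: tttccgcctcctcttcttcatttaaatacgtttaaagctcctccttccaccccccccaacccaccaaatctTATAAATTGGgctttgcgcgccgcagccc
Zfp212, chr6:47920468-47920567, plus strand: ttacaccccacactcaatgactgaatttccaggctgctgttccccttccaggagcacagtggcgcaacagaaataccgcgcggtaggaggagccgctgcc
Zfp367, chr13:64153200-64153299, minus strand: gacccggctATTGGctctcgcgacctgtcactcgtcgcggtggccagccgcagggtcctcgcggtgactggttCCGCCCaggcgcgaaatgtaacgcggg
Zfp598, chr17:24669587-24669686, plus strand: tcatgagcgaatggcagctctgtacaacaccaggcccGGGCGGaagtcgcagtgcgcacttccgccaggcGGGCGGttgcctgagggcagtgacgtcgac
In Zfp36l1 the TATAAA lay 29 to 24 bases before the start and shared 1 base with a CCAAT on the opposite strand. In Zfp367 a CCAAT and a GGGCGG, both on the opposite strand, ended 87 and 22 bases before the start. Zfp598 held 2 GGGCGG on its own strand, and none of these letters occurred in the stretch shown for Zfp212.

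RefSeq promoters of 300 bases, from 250 before to 50 after the start, were found for 75 of the 93 genes and gave 93 windows. TATAAA on either strand was present in 7 of these windows (7.53%), against 13.6% of all 32851 promoters of the table. GGGCGG, the GC box bound by Sp factors, was present in 50 windows (53.8% against 35.7%), and CCAAT, the box bound by NF-Y, in 41 (44.1% against 37.4%). The median GC content was 57.7% in the Zfp windows and 52.7% in all. Of the genes with TATAAA in a window, 6 were measured on at least 4 arrays, and the mean deposited Z-ratio lay above 0 in 1 and below 0 in 5 of them. Without TATAAA, 31 of 64 genes lay above 0 and 33 below. Over clones with both spots measured the split of the 6 genes was 3 above and 3 below (30 and 34 of the 64 others). Zfp84 lay below 0 through a single spot of replicate 4, and Zfp871 through single spots of replicates 4 and 6. These are letters in a window and not binding sites, and the counts were not tested.

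The arrays did not measure every Zfp gene. Values were present on all 6 arrays for 61 genes, on 5 for 14, on 4 for 12 and on 3 for 6 genes. That is 65.6% of the Zfp genes complete, against 72.6% of all named genes. Replicate 3 lacked 32.3% of the Zfp genes (25.3% of all genes) and replicate 4 lacked 15.1% (10.1%), while replicates 1 and 2 held all of them. The 87 genes on at least 4 arrays were tested. The 6 genes left untested were Zfp36l1 and Zfp638, given with their role below, Zfp61 (-0.654, -0.458 and -0.674 on replicates 1, 2 and 4), Zfp185, a LIM domain protein of the actin cytoskeleton (1.15, -0.431 and 0.902 on replicates 1, 2 and 5), Zfp518b (0.255, -1.46 and 1.60 on replicates 1, 2 and 6) and Zfp654 (-0.254, -1.49 and -5.15 on replicates 1, 2 and 5). Zfp61 and Zfp654 were below 0 on each of their 3 arrays, and the other 4 had values on both sides of 0.

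As a group the Zfp genes lay close to the other genes of each array. Their median Z-ratio was -0.0659 on replicate 1, where that of all genes was -0.152, and 0.0183 on replicate 2 (all genes 0.124). It was -0.283 on replicate 3 (-0.204), -0.0338 on replicate 4 (-0.117), 0.201 on replicate 5 (0.210) and 0.0436 on replicate 6 (-0.0269). The Zfp median lay above that of all genes on replicates 1, 4 and 6 and below it on the others. The SD among Zfp genes ranged from 0.473 on replicate 3 to 1.60 on replicate 4, where all genes had 0.891.

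**Figure D1:**
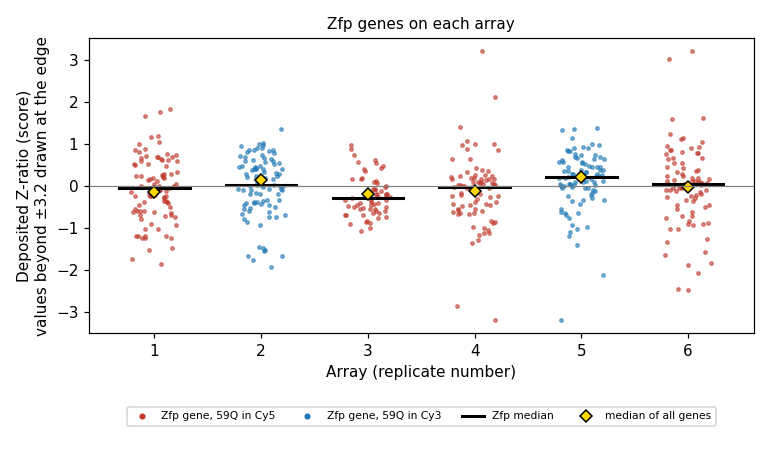
Deposited Z-ratios (score, vertical axis) of the Zfp genes on the 6 arrays (horizontal axis), in red where the 59Q RNA was labelled with Cy5 and in blue where it was labelled with Cy3. Black lines are Zfp medians, from -0.283 on replicate 3 to 0.201 on replicate 5, and yellow diamonds are medians of all genes. The few values past the range of the axis are drawn at its edge.

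As deposited, no Zfp gene passed limma's test of the mean against 0 after Benjamini-Hochberg adjustment over the 6463 genes on at least 4 arrays, where 0% of all genes passed, and the smallest adjusted p of a Zfp gene was 0.999. The mean Z-ratio lay above 0 for 39 Zfp genes and below 0 for 48, or 44.8% above, against 43.1% of all genes. The median of the means was -0.0422, and -0.0449 over all genes. The middle part of the tested Zfp genes, from the lower to the upper quartile, lay between -0.244 and 0.101. At an unadjusted limma p under 0.05 there were 4 Zfp genes of 87 (4.6%), where 2.61% of all genes passed. Above 0 these were Zfp790 and Zfp729a (0.975% of all genes in that direction), and below 0 Zfp207 and Zfp451 (1.64%).

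Zfp207, known as BuGZ, binds spindle microtubules and loads the checkpoint protein Bub3 onto kinetochores. Its deposited Z-ratios were -0.638, -0.554, -0.395, -1.36, 0.0441 and -1.33 on replicates 1 to 6. The 5 values below 0 came with both dyes, and only replicate 5 was near 0. The mean was -0.707 ± 0.550 (SD, n = 6, exact sign-flip permutation test p = 0.0625, two-sided). The 2 Zfp207 clones were not alike, with a mean of -0.893 over 6 arrays for one and -0.0101 over 3 arrays for the other. The gene values of replicates 3, 4 and 6 came from the first clone alone. On replicates 1, 2 and 5 the first clone had -1.51, -0.420 and -0.341, and the second 0.229, -0.689 and 0.429. Zfp451, a SUMO ligase, had values on 4 arrays only, -1.86 on replicate 1, -0.0145 on replicate 2, -0.264 on replicate 3 and -1.43 on replicate 5. Its mean of -0.891 ± 0.892 (SD, n = 4) rested on 2 values far below 0, and the exact sign-flip p was 0.125, the smallest that 4 arrays allow.

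Zfp790 and Zfp729a are genes whose function is little known. Zfp790 had Z-ratios of 1.76, 0.775, 0.733, 0.957, -0.633 and 1.22 on replicates 1 to 6, with a mean of 0.803 ± 0.799 (SD, n = 6, exact sign-flip p = 0.0625). Zfp729a had 0.665, 1.01, 0.571, 1.40, -0.351 and 0.897, with a mean of 0.700 ± 0.592 (SD, n = 6, exact sign-flip p = 0.0625). In both genes replicate 5 alone lay below 0, and the other array with 59Q in Cy3, replicate 2, lay among the Cy5 arrays.

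Of the 61 Zfp genes with a value on every array, 3 had the same sign on all 6 (4.92%), against 1.58% of all such genes. Zfp598 and Zfp367 lay above 0 throughout (0.467% of all genes), and Zfp282 below (1.12%). Zfp598, a ubiquitin ligase that marks collided ribosomes, had Z-ratios of 0.234, 0.0115, 0.183, 0.430, 0.238 and 1.03, of which 4 lay between 0.183 and 0.430. Its mean was 0.354 ± 0.356 (SD, n = 6, exact sign-flip p = 0.0312, the smallest that 6 arrays allow). Zfp367 had 0.182, 0.147, 0.611, 0.159, 0.631 and 1.12, with a mean of 0.476 ± 0.389 (SD, n = 6, exact sign-flip p = 0.0312). The 2 Zfp367 clones nevertheless had opposite signs on 2 of the 4 arrays that measured both. Zfp282, a repressor of a viral promoter in its human form, had -1.20, -0.396, -0.121, -0.659, -0.288 and -0.0347, with a mean of -0.449 ± 0.427 (SD, n = 6, exact sign-flip p = 0.0312). Zfp783 was below 0 on the 5 arrays that measured it, from -0.888 to -0.0505 (exact sign-flip p = 0.0625, the smallest that 5 arrays allow). These genes are given here for their 1 sign, and any gene of 1 sign on every array gets the smallest sign-flip p possible. Their sign-flip p is thus fixed by the choice and is no separate result. Each of these genes fails the adjustment over all genes, limma's adjusted p being no lower than 0.999.

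The extreme means came from other genes. Among the 87 tested genes Zfp871 had the lowest mean, -2.23 ± 4.45 (SD, n = 5), from Z-ratios of -0.594, -0.193, -9.92, 1.38 and -1.83 on replicates 1, 2, 4, 5 and 6. Zfp101 had the highest, 1.53 ± 3.61 (SD, n = 5), from -0.259, -0.754, 7.93, 0.564 and 0.171 on the same arrays. Replicate 4 set both means, and their other values lay on both sides of 0. Zfp871 was the only one of the 87 with a mean at least 1.96 from 0, the size the study's methods took as a change, where 0.0309% of all tested genes lay that far below 0 and 0.232% that far above. The untested Zfp654 and Zfp36l1 had means of -2.30 and 1.14 over 3 arrays, each set by 1 single-spot value.

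Next in order above 0 among the tested genes stood Zfp830, a nuclear protein needed in early development, with 0.849, -0.189, 2.10 and 0.682 on replicates 1, 2, 4 and 5 (mean 0.860 ± 0.943, SD, n = 4). Zfp804a, the mouse form of a gene studied for its link to schizophrenia, had a mean of 0.546 ± 0.424 (SD, n = 4), and Zfp511 one of 0.506 ± 1.42 (SD, n = 5). Below 0 stood Zfp644, -0.823 ± 1.50 (SD, n = 4), Zfp354a, -0.550 ± 0.597 (SD, n = 6), Zfp84, -0.522 ± 1.43 (SD, n = 5), Zfp444, -0.512 ± 0.905 (SD, n = 6) and Zfp87, -0.510 ± 0.569 (SD, n = 6). In each of these genes other than Zfp804a, the SD over arrays was larger than the distance of the mean from 0. The highest value of Zfp804a, 0.991 on replicate 5, came from a single spot, and without it the mean was 0.397 over 3 arrays.

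**Figure D2:**
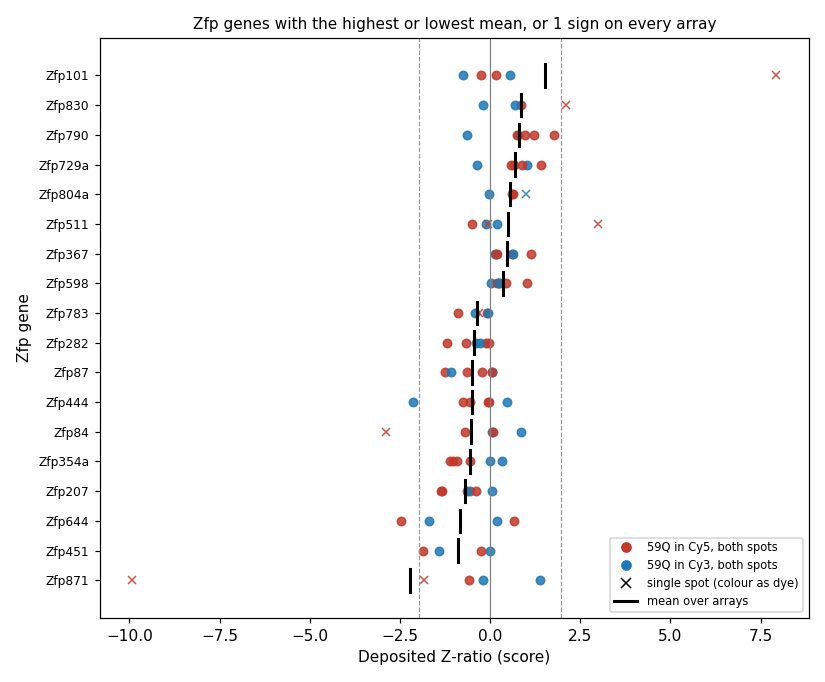
Deposited Z-ratios (score, horizontal axis) on each array of the Zfp genes with the highest or lowest mean, or with 1 sign on every array (vertical axis). Red marks 59Q in Cy5 and blue 59Q in Cy3, crosses are values from single spots only, black bars are means over arrays, and dashed lines stand at 1.96 on either side of 0. Zfp871 and Zfp101 owe their place at the ends to 1 cross each, at -9.92 and 7.93.

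Each clone was printed as 2 spots, and a value that rests on 1 surviving spot was set apart. Of the 502 values of Zfp genes on the arrays, 468 had a clone with both spots measured and 34 came from single spots only. Of the 468, 3 lay at least 1.96 from 0 (0.641%) and the largest was 2.48 in size. Of the 34, 8 did so (23.5%) and the largest was 9.92. The same split over all genes gave 2.27% and 12.2%. The 34 values fell on replicates 3 (7), 4 (14), 5 (4) and 6 (9), and none on replicates 1 and 2.

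The 11 Zfp values that lay at least 1.96 from 0 belonged to 11 genes. With both spots these were Zfp62 at -2.48 and Zfp644 at -2.47 on replicate 6, and Zfp444 at -2.14 on replicate 5. From single spots they were Zfp101 at 7.93, Zfp830 at 2.10, Zfp84 at -2.88 and Zfp871 at -9.92 on replicate 4, Zfp654 at -5.15 on replicate 5, and Zfp36l1 at 4.34, Zfp511 at 3.00 and Zfp948 at -2.09 on replicate 6. With values from clones with both spots alone, the mean of Zfp871 was 0.199 over 3 arrays in place of -2.23, that of Zfp101 was -0.0694 over 4 arrays in place of 1.53, and that of Zfp511 was -0.138 over 3 arrays in place of 0.506. The sign turned in all 3, and also in Zfp84, from -0.522 to 0.0668, and in Zfp36l1, from 1.14 to -0.462. The mean of Zfp830 went from 0.860 to 0.448 without a turn. Why single spots gave larger values was not tested.

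**Figure D3:**
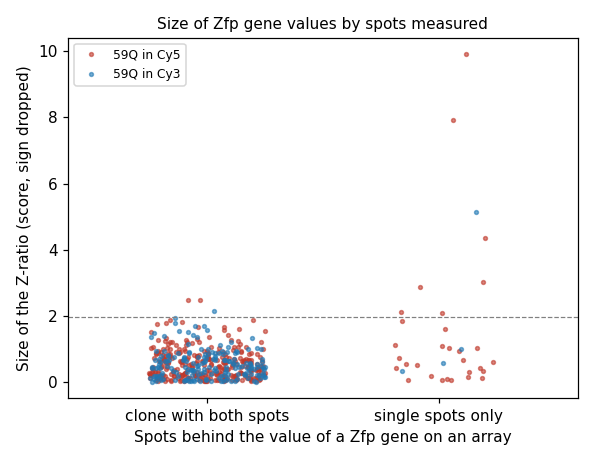
Size of the Z-ratio (score without its sign, vertical axis) of every Zfp gene on every array, by whether a clone with both spots or single spots only stood behind it (horizontal axis). The dashed line is at 1.96. The 468 values with both spots reached 2.48 in size and the 34 values from single spots 9.92.

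Where both spots of a Zfp clone were measured, their values ran together across clones with a Pearson r between 0.609 on replicate 5 and 0.848 on replicate 6. These are descriptions across clones that share an array. The sign of the paired spots was opposite for 26 of 115 clones on replicate 1, 27 of 115 on replicate 2, 11 of 60 on replicate 3, 13 of 73 on replicate 4, 22 of 100 on replicate 5 and 15 of 86 on replicate 6. The 20 Zfp genes with more than 1 clone gave 85 cases of an array with several clones measured, and the clones had opposite signs in 38 of them. Over arrays, the clone means had 1 sign in 11 of the 20 genes. These counts of spots and clones were not made over all genes, so they do not set the Zfp genes apart. Zfp genes are close relatives in sequence, and whether a clone also detects RNA of a relative was not tested.

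The question whether the Zfp values followed the dye was addressed by setting the 4 arrays with 59Q in Cy5 against the 2 with 59Q in Cy3. The difference, Cy5 arrays minus Cy3 arrays, lay above 0 for 27 Zfp genes and below 0 for 59. Over all genes it lay above 0 for 2252 and below 0 for 4187. Its median was -0.227 over the Zfp genes and -0.319 over all genes. The Zfp median did not keep its direction under other scalings, being 0.0654 with each array centred on its median and -0.0261 with quantile normalization. No Zfp gene passed limma with Benjamini-Hochberg adjustment over 6439 genes (0% of all genes passed), and 12 of 86 Zfp genes had an unadjusted p under 0.05 (14%, against 16.2% of all genes). These were 3 above 0 (5.89% of all genes), namely Zfp212, Zfp213 and Zfp462, and 9 below (10.3%), namely Zfp57, Zfp62, Zfp110, Zfp217, Zfp263, Zfp354a, Zfp623, Zfp948 and Zfp954. With a term for the dye in the fit of the deposited mean, again no Zfp gene passed limma with adjustment, and 4 of 86 had an unadjusted p under 0.05 (2.75% of all genes), 3 above 0 (1.26%) and 1 below (1.49%). The arrays of the 2 orientations did not overlap for 18 of the 61 complete Zfp genes. The Cy5 arrays were all higher in 2 genes, Zfp212 and Zfp949 (3.28%, against 8.42% of all genes), and all lower in 16 (26.2%, against 24.4%).

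Zfp212, a gene of unsettled function, had the smallest limma p of the Zfp genes, both in this comparison and under the Cy5 over Cy3 reading. Its Z-ratios were 0.992, 0.534, 0.992 and 0.630 on the arrays with 59Q in Cy5, replicates 1, 3, 4 and 6, and -0.935 and -1.19 on the arrays with 59Q in Cy3, replicates 2 and 5. The groups did not overlap, and the sizes were alike on both sides of 0. The mean difference between orientations was 1.85 ± 0.400 (SE, limma adjusted p = 0.171, exact permutation p = 0.0667, the smallest that 4 against 2 arrays allow). Under the Cy5 over Cy3 reading its mean was 0.879 ± 0.248 (SD, n = 6), above 0 on 6 of 6 arrays (exact sign-flip p = 0.0312), and limma's adjusted p was 0.0692. That p crossed the threshold in some of the alternatives. It was 0.0318 with each array centred on its median, where 102 of all 6463 genes passed. It was 0.0489 with quantile normalization (84 of 6463 passed), 0.0416 over genes on all 6 arrays (72 of 4926) and 0.0460 over clones with both spots (63 of 6018). In the main fit 18 of 6463 genes passed. The adjusted p of Zfp212 was between 0.116 and 0.178 when any 1 array was left out and 0.210 with limma's trend and robust options. A bias of the gene for a dye and a difference between 59Q and N3 transfected cells give the same pattern when the direction is unknown, and cannot be told apart here. In the order of protein-coding genes Zfp398, Zfp282 and Zfp212 follow each other, with deposited means of -0.0201, -0.449 and 0.170. Zfp783, which RefSeq lists as a non-coding RNA and whose promoter lies nearer to that of Zfp212, had a mean of -0.350.

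The opposite pattern, lower with 59Q in Cy5, was seen in more of the Zfp genes, as in all genes, on the deposited scale. Zfp62 had -1.20, -0.283, -0.428 and -2.48 on the Cy5 arrays and 1.34 and 0.442 on the Cy3 arrays, without overlap, and its difference was -1.99 ± 0.658 (SE, limma adjusted p = 0.257). Zfp110, which encodes a protein that binds the neurotrophin receptor p75, had -0.0477, -0.418, -1.02 and -0.904 against 0.727 and 0.667, a difference of -1.29 ± 0.441 (SE, limma adjusted p = 0.261). Its values on replicates 3 and 4 came from single spots of 1 clone. Over arrays that clone had a mean of -0.295, and the other Zfp110 clone one of 0.304. Zfp263 had -0.245, -0.344, -0.846 and -1.88 against 0.978 and 0.366, a difference of -1.50 ± 0.548 (SE, limma adjusted p = 0.266). In the other direction, Zfp462, a chromatin factor of embryonic stem cells, had 1.66, 0.0396 and 0.803 on the Cy5 arrays measured and -1.52 and -0.445 on the Cy3 arrays, a difference of 1.82 ± 0.615 (SE, limma adjusted p = 0.262). Zfp213 and Zfp12 followed with differences of 1.35 ± 0.535 and 1.24 ± 0.554 (SE). On the Cy5 arrays, the 0.0396 of Zfp462 (replicate 4) and the 0.932 of Zfp213 (replicate 6) came from single spots. The largest differences in size, -4.71 ± 2.39 for Zfp871 and 2.71 ± 2.18 for Zfp101, rested on the single spots of replicate 4.

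**Figure D4:**
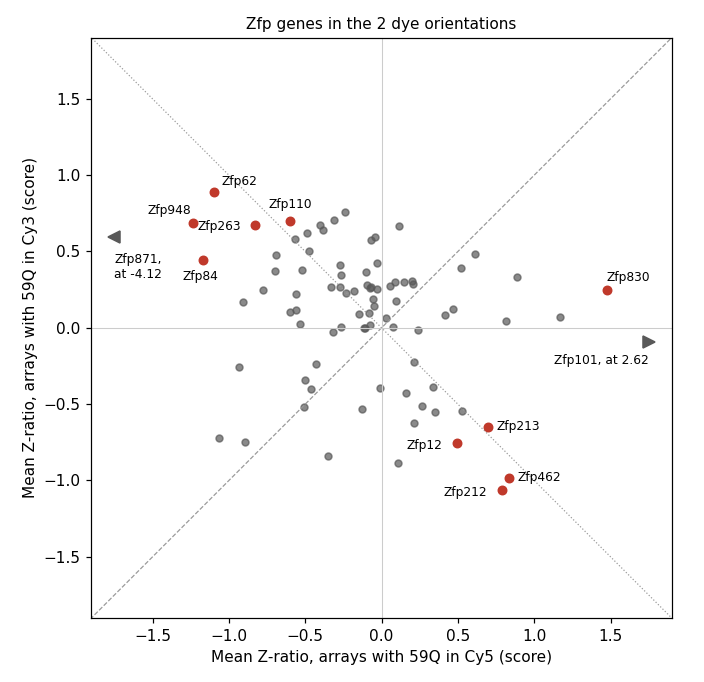
Mean deposited Z-ratio (score) of each tested Zfp gene on the arrays with 59Q in Cy3 (vertical axis) against the arrays with 59Q in Cy5 (horizontal axis). The dashed line marks equal means and the dotted line means of equal size and opposite sign. Zfp212, at 0.787 and -1.06, and Zfp462, at 0.833 and -0.984, lie near the dotted line at the lower right, and triangles at the edge stand for Zfp871 (-4.12) and Zfp101 (2.62).

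Under the Cy5 over Cy3 reading, no Zfp gene passed limma with Benjamini-Hochberg adjustment, where 0.279% of all genes passed, 0.263% above 0 and 0.0155% below. The median of the Zfp means was -0.145, against -0.160 over all genes. At an unadjusted limma p under 0.05 there were 20 Zfp genes (23%, against 19.8% of all genes). Above 0 these were 6 genes (6.42% of all genes), Zfp12, Zfp42, Zfp212, Zfp213, Zfp462 and Zfp790, of which only Zfp790 also had such a p as deposited. Below 0 there were 14 genes (13.4%). Of the 61 complete genes, Zfp212 alone lay above 0 on all 6 arrays (5.01% of all genes), and 10 lay below 0 on all 6 (16.4%, against 11.2% of all genes), namely Zfp57, Zfp62, Zfp110, Zfp229, Zfp263, Zfp277, Zfp281, Zfp354a, Zfp623 and Zfp954. Zfp598, Zfp367 and Zfp282, which kept 1 sign as deposited, by construction did not do so here, and their means were 0.271, 0.216 and -0.221.

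The dye pattern was also set out by number of clones. The difference between orientations lay below 0 for 18 of 19 Zfp genes with more than 1 clone (94.7%, median -0.602), and for 41 of 67 Zfp genes with 1 clone (61.2%, median -0.180). Over all genes the shares were 64.1% with more than 1 clone and 65.4% with 1 clone. This split was made on the deposited scale only, and the median difference over all Zfp genes did not keep its direction with each array centred. The share among Zfp genes was not tested, since the genes share arrays and are no replicates.

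By role, the Zfp proteins that act on RNA or in the cytoplasm were represented by 6 of 12 listed genes, of which 4 were tested. None of the 4 passed, 1 had a mean above 0 and 3 below, and the median was -0.195. Zfp598 was the one above 0. Over all tested genes 43.1% of the means lay above 0, with a median of -0.0449, to be set beside the lists below too. Zfp36l2, which with Zfp36l1 binds AU-rich elements and triggers mRNA decay, had -1.75, 0.220, -0.705, -0.400, 0.736 and 0.0985 (mean -0.300 ± 0.869, SD, n = 6). Zfp593 and Zfp622, which take part in maturation of the large ribosomal subunit, had means of -0.363 ± 0.788 and -0.0908 ± 0.696 (SD, n = 6). Zfp36l1, whose TATAAA is printed above, was measured on 3 arrays only, at 0.746, -1.67 and, from a single spot, 4.34. Zfp638, an RNA-binding nuclear protein, was also on 3 arrays, at 0.686, -0.106 and 1.31.

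Of the Zfp proteins linked to the spindle, chromosomes, ubiquitin or SUMO, 5 of 9 listed genes were tested. None passed, 1 lay above 0 and 4 below, and the median was -0.199. Zfp207 and Zfp451, given above, were the 2 with an unadjusted limma p under 0.05, where 2.61% of all genes had one. Zfp91, a ubiquitin ligase, had 3 clones and a mean of -0.0438 ± 0.509 (SD, n = 6), and Zfp280d, whose function is little known and whose place in this list is uncertain, a mean of -0.199 ± 0.645 (SD, n = 4). Zfp280d gave the median of the list, and Zfp830 was the one above 0.

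Of the factors of stem cells, imprinting and cell fate, 9 of 21 listed genes were tested. None passed, 2 lay above 0 and 7 below, and the median was -0.0438 as deposited and -0.364 under the Cy5 over Cy3 reading. Over all genes these medians were -0.0449 and -0.160. Zfp57, which keeps methylation at imprinted loci with Trim28, had -0.911, -0.202, -0.581 and -0.196 with 59Q in Cy5, and 0.462 and 0.545 with 59Q in Cy3. Its difference between orientations was -0.976 ± 0.416 (SE, limma adjusted p = 0.302). Zfp42, known as Rex1 and a marker of pluripotent cells, ran the other way on the 4 arrays that measured it, with 0.607 and 0.451 against -0.527 and -0.569. Zfp281, a regulator of Nanog, had -0.268, -0.0693, -1.19 and -1.57 against 0.400 and 0.100. The deposited means of the others were small beside their SD, namely Zfp219 with -0.349 ± 0.659, Zfp277 with -0.300 ± 0.458, Zfp217 with -0.0438 ± 0.707, Zfp296 with -0.0380 ± 0.473 and Zfp335 with 0.0667 ± 0.788 (SD, n = 6).

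The partners of KRAB zinc fingers were set beside them. Of 24 corepressor genes tested, 13 lay above 0 and 11 below as deposited, with a median of 0.0602, and none passed or had an unadjusted limma p under 0.05. Under the Cy5 over Cy3 reading 8 lay above and 16 below, with a median of -0.134, and the difference between orientations lay above 0 for 7 and below for 17. Over all genes 2236 lay above and 4227 below under that reading (median -0.160), and the difference lay above 0 for 2252 and below for 4187. As deposited, 2785 of all genes lay above 0 and 3678 below. Trim28 had a deposited mean of -0.258 ± 0.503 and Setdb1 one of 0.177 ± 0.440 (SD, n = 6). Trim28 lay below 0 on 6 of 6 arrays under the Cy5 over Cy3 reading, where its mean was -0.455 ± 0.291 (SD, n = 6) and its adjusted p in limma 0.213. Of all genes with a value on every array, 11.2% lay below 0 on all 6 under that reading. The smallest p values as deposited were those of Cbx5, an HP1 protein, at 0.503 ± 0.818, and of Atf7ip, the partner of Setdb1, at 0.416 ± 0.619 (SD, n = 6). Of 34 other zinc-finger transcription factors tested, 17 lay above and 17 below 0, with a median of 0.00989, and under the Cy5 over Cy3 reading 11 lay above and 23 below, with a median of -0.125. Klf5 had the smallest p, with a mean of -0.819 ± 1.06, followed by Rest, the repressor of neuronal genes, with 0.701 ± 0.948 (SD, n = 6). None of these lists held a gene that passed the adjustment in any of the 3 fits.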

How the data were processed

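RNA of 59Q and N3 transfected Neuro-2a cells was compared on 6 two-colour cDNA arrays with 31200 spots. The authors scanned the arrays and deposited 1 Z-ratio per spot, a score whose direction is not settled. Gene symbols came from GEO's platform annotation (18384 spots with 1 symbol). Each pair of duplicate spots was averaged to a clone and clones to a gene. Depth does not apply to arrays, and their number limits the precision.

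Fits in limma 3.58.1 (R 4.3.3) took genes with values on 4 or more arrays, with Benjamini-Hochberg adjustment over all tested genes and a threshold of 0.05. The tests were of the mean as deposited, of the mean with replicates 2 and 5 turned, and of the difference between dye orientations, which needed at least 2 arrays with 59Q in Cy5 and both with 59Q in Cy3. Exact sign-flip and permutation tests, two-sided, were used for single genes. The scripts were tested on simulated data. The Zfp genes and all gene lists were chosen with earlier results of these data known.

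Named genes were the 8 highest and 8 lowest means, the 6 largest and 6 smallest orientation differences, genes with an unadjusted p under 0.01 in any fit, members of the role lists, genes of 1 sign on at least 5 arrays, and the 2 smallest p values of each other list. Genes in the dye and single-spot counts, the gene lists' other members and Trim28 and Setdb1 were named after their values were seen. Left out were 2 Zfp clones annotated to several genes. Protein sequences were not used here. Alternatives were centring, quantile normalization, clipping, clone and array filters, other directions, and leaving out arrays.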

Additional observations from a re-analysis of the deposited data

How the results depend on the processing

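No Zfp gene passed limma with adjustment as deposited or between dye orientations under any alternative run, and none as deposited in 12 of 12 possible flip-dye pairings. Under the Cy5 over Cy3 reading 1 gene, Zfp212, passed with centring, with quantile normalization, over genes on all 6 arrays and over clones with both spots, the last chosen after seeing the data. Under that reading and those settings, in that order, 102, 84, 72 and 63 of all genes passed, against 18 in the main fit. Centring moved the median of that reading to 0.00108 and its unadjusted count to 12, and the median difference between orientations to 0.0654, which was -0.0261 with quantile normalization. The unadjusted count as deposited, 4, became 0 with limma's trend and robust options, 2 for channel 1 over channel 2, 11 with 59Q in Cy5 only, 12 with replicates 3, 4 and 6 only, and 7 or 8 in 3 of the pairings, while the Cy5 over Cy3 count was 13 in 1 pairing. Leaving out 1 array gave unadjusted counts of 2 to 6 as deposited (2 without replicate 1 and 2 without replicate 4), 12 to 18 under the Cy5 over Cy3 reading (12 without replicate 1) and 5 to 13 between orientations (5 without replicate 2). The medians were then -0.125 to 0.0113, -0.202 to -0.102 and -0.356 to -0.150. No paired analysis was possible because the flip-dye partners are not named and the 2 dye groups share no replicate number, so the 12 pairings are each only a possibility. With 6 arrays of unsettled direction, absence of calls does not show absence of change. Causes were not tested.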
